A study of Homo sapiens with 18 samples.

Results

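The G1 cyclins CCND1, CCND2, CCND3, CCNE1 and CCNE2, the kinases CDK2, CDK4 and CDK6 that they activate, the retinoblastoma gene RB1 and the transcription factor gene E2F1 were followed in RNA of PANC-1 cells. These 10 genes were taken by symbol from the 26485 genes of each deposited table, and all 10 were listed in all 18 libraries. PANC-1 cells are an established human line derived from a ductal carcinoma of the pancreas. The study asked what happens to the growth and the cell cycle of such cells when the kinase PKR, encoded by EIF2AK2, is lowered or inhibited. One experiment compared cells transfected with a control siRNA, with PKR siRNA 1 or with PKR siRNA 2, short RNAs that direct the cleavage of matching mRNAs, and took RNA 72 h after transfection. The other compared cells kept for 72 h with the solvent DMSO, with C16 at 400 nM or with C16 at 800 nM, C16 being a small-molecule inhibitor of PKR. Each of the 6 groups had 3 libraries. The siRNA experiment had no untransfected group, and the C16 experiment had no group without solvent. The labels name a separate run for each of the 2 experiments, without saying what a run was. The run therefore cannot be told apart from the type of treatment. The experiments were normalized in separate tables, and levels were compared only within a table. The dose of 400 nM is named in the labels alone. The labels do not say whether the replicates were separate cultures, so the SDs and p-values describe the spread between libraries.

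Cyclins D1, D2 and D3 bind CDK4 and CDK6 and begin the phosphorylation of the RB1 protein in G1. Phosphorylated RB1 releases E2F1 and its relatives, which switch on genes of DNA replication as well as CCNE1, CCNE2 and E2F1 itself. Cyclin E with CDK2 then completes the phosphorylation of RB1 and carries the cell into S phase. In pancreatic ductal carcinoma the CDK inhibitor gene CDKN2A, which restrains CDK4 and CDK6, is often lost.

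Reads on genes numbered 1512940 to 1873906 per library in the siRNA table (median 1739550) and 894145 to 1474308 in the C16 table (median 1070960). EIF2AK2, the targeted gene, stood at 93.5 to 103 normalized counts in control siRNA libraries and at 7.96 to 13.6 in PKR siRNA libraries. In the C16 experiment it stood at 39.2 to 54.1 in all 9 libraries. All 6 epithelial markers looked for were detected in both tables. Of 4 markers of blood cells 1 was detected, with PTPRC, CD3E and HBB at 0 in every library. The blood sums were low, reaching at most 4.44 normalized counts among siRNA libraries (PKR siRNA 1) and 4.86 among C16 libraries (DMSO). Summed, the epithelial markers ranged over 5358 to 5451 normalized counts for control siRNA, 3052 to 3280 for PKR siRNA 1 and 9586 to 10233 for PKR siRNA 2. With DMSO, 400 nM and 800 nM C16 they ran from 7171 to 7572, 6033 to 6544 and 5172 to 5685. The 3 mesenchymal markers, all detected, summed to 4723 to 4922 for control siRNA, 5012 to 5034 for PKR siRNA 1 and 5241 to 5520 for PKR siRNA 2. In the C16 table they summed to 3108 to 3138 with DMSO, 2394 to 2557 at 400 nM and 1988 to 2172 at 800 nM. Of 4 fibroblast markers 1 was detected, with COL1A2 and DCN at 0, and the sums were 82.1 to 108.5, 21.8 to 28.9 and 106 to 115 in the siRNA groups in the same order. With C16 the fibroblast sums were 130.2 to 161, 103 to 159.5 and 58.2 to 92.8. Endothelial, acinar and islet markers were at or near 0 in every library. The part of these shifts in the results below was not tested. In RNA of a whole culture, a smaller share of cells in one phase of the cycle and less RNA per cell cannot be told apart.

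A gene was called when its Benjamini-Hochberg adjusted p-value, taken over all genes tested in the table, was under 0.05 and its fold change over 1.5. The test was limma's moderated test with trend, on values as log2 (normalized count + 1), and fold changes are on that scale, where genes with few reads appear to change less than they do. Genes needed a mean of 10 normalized counts, which left 10593 genes of the siRNA table and 9963 of the C16 table. Among siRNA libraries, 9 of the 10 members passed this filter, CCND2 being the exception. Among C16 libraries, all 10 passed, CCND2 only through its levels in the C16 libraries, so it is described below by its values and left out of the counts and medians.

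With PKR siRNA 1, CDK2, CDK6 and RB1 were called higher and 0 members lower, against 8.53% of all tested genes called higher and 12.6% called lower. With PKR siRNA 2, CDK6 was called higher and CCND1 and CCND3 lower, against 10.8% and 12.8% of all tested genes. The median log2 fold change of the 9 tested members was 0.30 with PKR siRNA 1 and 0.15 with PKR siRNA 2, where the median of all tested genes was -0.01 in both. Of the 9 members whose DMSO libraries also averaged 10 or more, both C16 doses gave 4 called higher and 0 lower, namely CCND3, CCNE1, CCNE2 and CDK2. Of all tested genes, 7.08% were called higher and 5.45% lower at 400 nM, and 11.6% and 14.1% at 800 nM. The median of these 9 was 0.40 at 400 nM and 0.57 at 800 nM, against 0.00 for all tested genes at each dose. The 2 comparisons within a table share their control libraries.

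**Figure D1:**
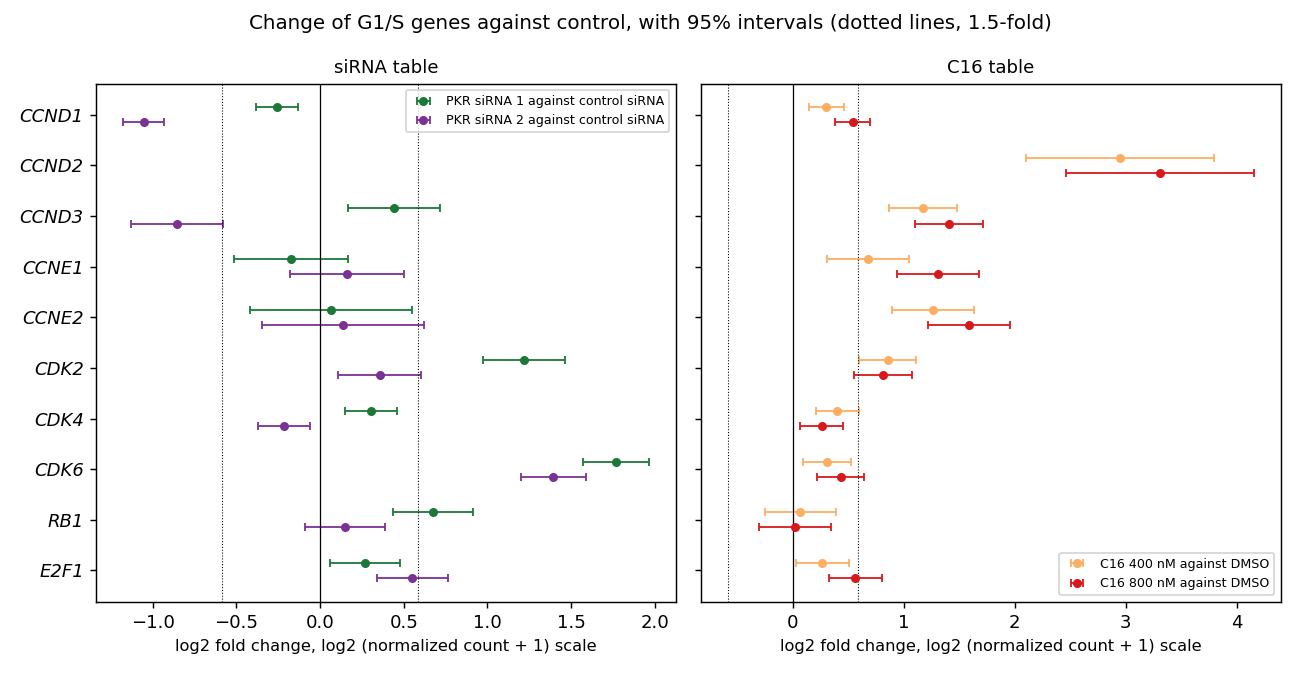
Log2 fold change of each member against its own control (x axis, log2 (normalized count + 1) scale) with its 95% interval from limma; dotted lines mark 1.5-fold. CDK6 stands at 1.77 and 1.39 in the siRNA panel, CCND1 and CCND3 fall only with PKR siRNA 2 beyond 1.5-fold, and in the C16 panel RB1 lies nearest to 0. CCND2 is drawn there with its intervals, which are not to be read as a test. It passed the filter only through the C16 libraries.

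The replicate libraries can also be set against each other without a model. With PKR siRNA 1, the 3 treated libraries were all above or all below the 3 controls for 7 of the 9 tested members, 5 above and 2 below, against 51.7% of all tested genes. With PKR siRNA 2 this held for 7 of 9, 4 above and 3 below, against 54.3%. With C16 it held for 8 of the 9 members without CCND2 at each dose, all 8 above, against 39.6% of genes at 400 nM and 51.8% at 800 nM, and RB1 was the exception. For a single gene the exact permutation test of 3 libraries against 3, two-sided, cannot give a p below 0.1.

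Levels can be compared between genes only per length. In normalized counts per kb of exon, the means of the control siRNA libraries ran from CCND1 at 178 through CDK4 at 139, E2F1 at 46.1, CDK2 at 27.9, CCND3 at 26.2, CCNE1 at 23.2, RB1 at 17.2, CCNE2 at 8.25 and CDK6 at 7.58 to CCND2 at 0.259. Neighbours in this order whose libraries overlapped were CDK2 and CCND3, CCND3 and CCNE1, and CCNE2 and CDK6. In the DMSO libraries CDK4 came first at 75.5 per kb and CCND1 second at 68.1, and their ranges did not overlap. E2F1 followed at 33.1 per kb, CDK2 at 27.9, CCNE1 at 13.9, RB1 at 12.7, CCND3 at 11.6, CDK6 at 9.96, CCNE2 at 7.69 and CCND2 at 0.234. From CCNE1 down to CCNE2, each gene overlapped its neighbour in the order.

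**Figure D2:**
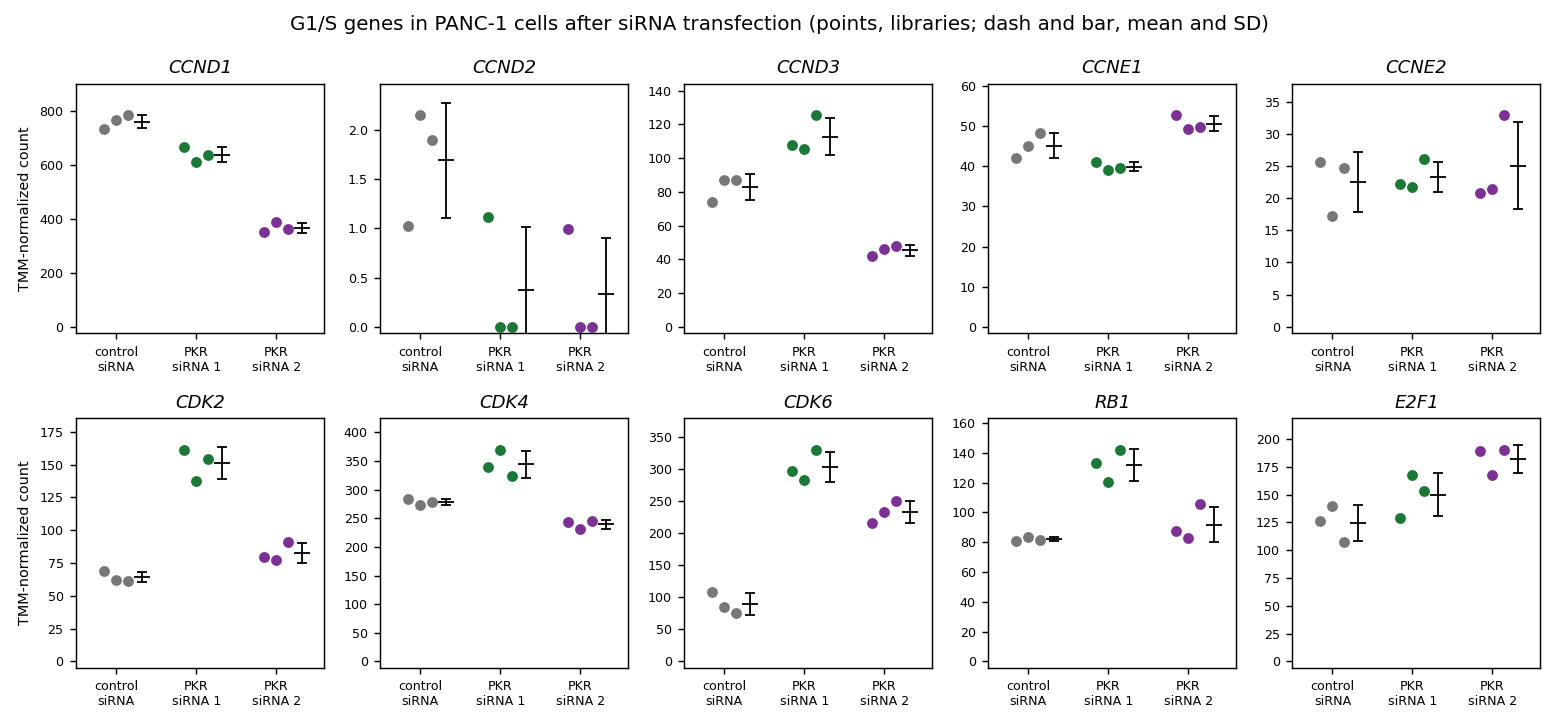
Normalized counts of the 10 members (y axis, 0 at the base, a scale of its own for each gene) in the 9 libraries of the siRNA table; points are libraries, the dash and bar their mean and SD (n = 3). CDK6 lies above the controls with both PKR siRNAs, while CCND1 and CCND3 are lowest with PKR siRNA 2.

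CCND1 (chromosome 11, 69641105 to 69654474, plus strand, in hg38 as for the other gene positions) encodes cyclin D1. Its normalized counts were 734, 766 and 785 with control siRNA, 666, 610.4 and 638 under PKR siRNA 1, and 350.1, 387 and 363 under PKR siRNA 2. The 3 groups did not overlap, and PKR siRNA 2 was the lowest. With PKR siRNA 2 CCND1 changed by a log2 fold of -1.05 (SE, the standard error, 0.06; limma, adjusted p = 1.91e-25), a 2.07-fold lower level. With PKR siRNA 1 the value was -0.26 (SE 0.06, limma, adjusted p = 4.64e-04), past the p threshold and short of 1.5-fold. The direct comparison of the 2 siRNAs gave -0.80 for PKR siRNA 2 against PKR siRNA 1 (limma, adjusted p = 3.48e-19). In the C16 table the direction was the other way. CCND1 counts were 281, 287 and 308 with DMSO, 357, 367 and 357 at 400 nM, and 442, 386 and 449 at 800 nM, again without overlap between the groups. C16 at 400 nM changed it by a log2 fold of 0.30 (SE 0.08, limma, adjusted p = 0.00238), and C16 at 800 nM by 0.54 (SE 0.08, limma, adjusted p = 7.17e-08). The latter is 1.45-fold, just under the limit for a call, and it passed at 0.61 without the second 800 nM library.

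CCND3 (chromosome 6, 41934933 to 42048894, minus strand) encodes cyclin D3. The control siRNA libraries held 73.9, 87.0 and 87.2 normalized counts, the PKR siRNA 1 libraries 108, 105 and 125, and the PKR siRNA 2 libraries 41.8, 46.1 and 48.0. The siRNAs moved CCND3 to opposite sides of the controls. Its log2 fold change came to 0.44 for PKR siRNA 1 (SE 0.14, limma, adjusted p = 0.00570), under 1.5-fold, and to -0.85 for PKR siRNA 2 (SE 0.14, limma, adjusted p = 1.91e-07). Set directly against PKR siRNA 1, PKR siRNA 2 gave a log2 fold change of -1.30 (SE 0.14, limma, adjusted p = 2.13e-13). With C16 CCND3 rose at both doses. Its counts were 28.2, 45.7 and 36.5 with DMSO, 86.1, 81.9 and 80.9 at 400 nM, and 112, 89.0 and 93.5 at 800 nM. All C16 libraries lay above all DMSO libraries. The log2 fold changes were 1.18 at 400 nM (SE 0.15, limma, adjusted p = 9.79e-09) and 1.41 at 800 nM (SE 0.15, limma, adjusted p = 1.88e-11). The difference between the doses was 0.23, with a 95% interval of -0.07 to 0.54.

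CCND2 (chromosome 12, 4273736 to 4305356, plus strand) encodes cyclin D2 and was close to silent without C16. All 9 siRNA libraries together held few reads of it, 5 in the control siRNA group and 1 in each PKR siRNA group, and it was not tested there. The DMSO libraries held 0, 3.81 and 0.761 normalized counts, from 5 reads in all. At 400 nM C16 the counts were 17.0, 16.1 and 11.7, from 41 reads, and at 800 nM 18.2, 17.1 and 22.9, from 56 reads. No C16 library came as low as a DMSO library. On the log2 (normalized count + 1) scale the differences from DMSO came to 2.95 at 400 nM and 3.31 at 800 nM, given with no test because the gene entered through the groups in which it is high. At so few reads these sizes follow the pseudocount, from 1.65 to 3.45 at 400 nM and 1.94 to 3.82 at 800 nM over the alternatives that kept the gene, and a minimum mean of 30 left it out. The doses differed by 0.36, with a 95% interval of -0.49 to 1.21. An exon of CCND2-AS1 on the opposite strand shares 126 bases, 1.93% of the exon length.

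**Figure D3:**
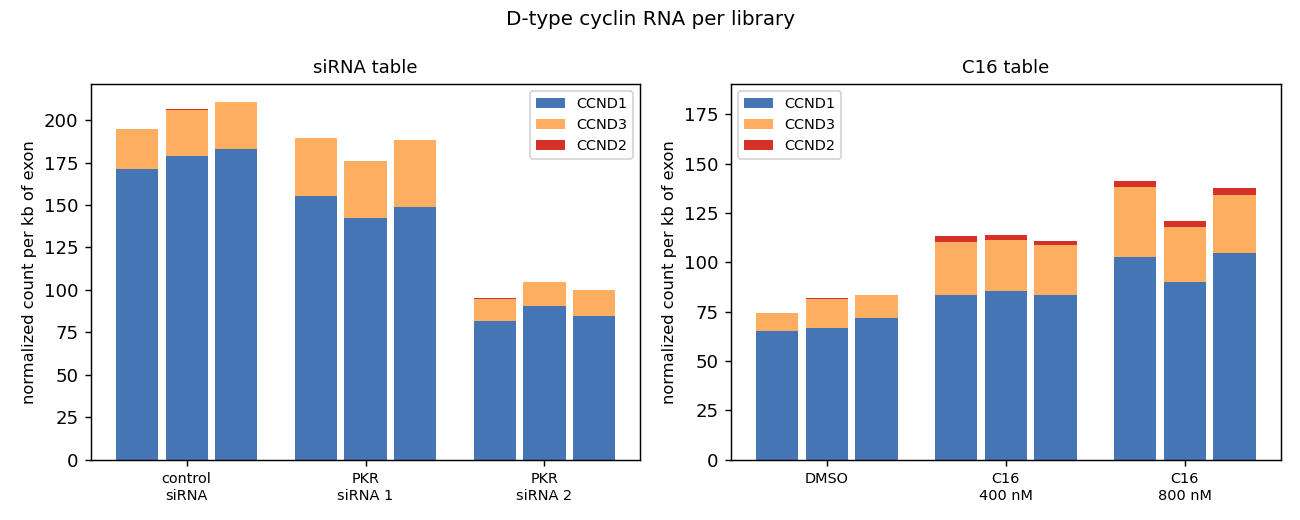
Stacked bars, 1 per library, of CCND1, CCND3 and CCND2 in normalized counts per kb of exon (y axis from 0), siRNA table on the left and C16 table on the right. The bars average 99.9 with PKR siRNA 2 against 204 with control siRNA, and with C16 they grow while the CCND1 share of each bar shrinks.

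Added per kb of exon, the D-type cyclins came to 204 ± 8.35 normalized counts in the controls, 185 ± 7.77 for PKR siRNA 1 and 99.9 ± 4.92 for PKR siRNA 2 (SD, n = 3 each). With DMSO the sum was 79.9 ± 4.89, at 400 nM C16 113 ± 1.66 and at 800 nM 133 ± 10.9. CCND1 supplied most of it in every library. Its share was 87.1% ± 0.743 in the controls, 80.6% ± 1.54 for PKR siRNA 1 and 85.6% ± 0.703 for PKR siRNA 2 (SD, n = 3 each). In the C16 table the share was 85.2% ± 3.27 with DMSO, 74.7% ± 0.908 at 400 nM and 74.5% ± 1.53 at 800 nM. In each of the 4 treated groups all libraries lay below their controls (exact permutation test, two-sided, p = 0.1 each, the smallest possible). CCND3 made up 14.5% ± 2.90 of the sum with DMSO and 23.3% ± 1.81 at 800 nM, and CCND2 0.284% ± 0.378 and 2.23% ± 0.293.

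CDK4 and CDK6 encode the kinases that D-type cyclins activate. CDK6 (chromosome 7, 92604921 to 92836627, minus strand) had the largest fold change of the members with each siRNA. Its counts were 108, 84.9 and 74.9 with control siRNA, 298, 284 and 330.0 under PKR siRNA 1, and 217, 234 and 251 under PKR siRNA 2. No treated library came near the highest control. In log2 fold change the siRNAs gave 1.77 for PKR siRNA 1 (SE 0.10, limma, adjusted p = 1.09e-26) and 1.39 for PKR siRNA 2 (SE 0.10, limma, adjusted p = 3.58e-21), or 3.41-fold and 2.63-fold. PKR siRNA 2 stood below PKR siRNA 1 (log2 fold change -0.38, limma, adjusted p = 7.79e-04), by less than 1.5-fold. With C16 the differences were smaller. CDK6 counts were 108, 122 and 122 with DMSO, 134, 155 and 148 at 400 nM, and 162, 147 and 165 at 800 nM, with all C16 libraries above DMSO. The log2 fold changes were 0.31 (SE 0.11, limma, adjusted p = 0.0247) and 0.43 (SE 0.11, limma, adjusted p = 7.11e-04), neither of them 1.5-fold. LOC101927497 on the opposite strand shares 81 exon bases with CDK6, 0.689% of its length.

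CDK4 (chromosome 12, 57747727 to 57752447, minus strand) was the more abundant kinase per kb in every group and changed little. The control siRNA libraries held 283, 273 and 279 normalized counts, the PKR siRNA 1 libraries 339.9, 369 and 323, and the PKR siRNA 2 libraries 243, 231 and 245. PKR siRNA 1 lay above the controls and PKR siRNA 2 below them, without overlap. The log2 fold changes were 0.30 (SE 0.08, limma, adjusted p = 8.44e-04) and -0.22 (SE 0.08, limma, adjusted p = 0.0176), and PKR siRNA 2 against PKR siRNA 1 gave -0.52 (SE 0.08, limma, adjusted p = 2.27e-08). With DMSO CDK4 stood at 155, 149.5 and 148, at 400 nM C16 at 196, 206 and 198, and at 800 nM at 172, 201.1 and 172. C16 gave log2 fold changes of 0.40 (400 nM, SE 0.10, limma, adjusted p = 0.00117) and 0.26 (800 nM, SE 0.10, limma, adjusted p = 0.0247). All of these passed the p threshold and fell short of 1.5-fold. TSPAN31 on the opposite strand shares 517 exon bases with CDK4, 25.8% of its length, and the strand setting used in counting is not given in the sources used here, although the library kit was directional. TSPAN31 itself stood at 5.07 ± 1.77 normalized counts in the controls, 5.29 ± 0.667 for PKR siRNA 1 and 21.2 ± 4.08 for PKR siRNA 2 (SD, n = 3 each), far below CDK4.

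The ratio of CDK4 to CDK6, taken per kb within each library, does not depend on how libraries are scaled. On the log2 scale it was 4.21 ± 0.25 in the controls, 2.73 ± 0.20 under PKR siRNA 1 and 2.59 ± 0.11 under PKR siRNA 2 (SD, n = 3 each). It fell below every control library with both siRNAs, by 1.48 and 1.62 (exact permutation test, two-sided, p = 0.1 each, the smallest possible). With C16 the libraries overlapped DMSO. The ratio was 2.92 ± 0.14 with DMSO, 3.02 ± 0.07 at 400 nM and 2.75 ± 0.22 at 800 nM (exact permutation test, two-sided, p = 0.3 each).

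RefSeq promoter windows, 250 bases before to 50 bases after a start site (GRCh38.p14), were at hand for 6 of the 10 members, in 9 windows. They were searched on both strands for 2 spellings of the E2F site, TTTCGCGC and TTTGGCGC, for the E-box CACGTG and for the GC box GGGCGG. Over 35116 promoter windows these occurred in 0.515%, 0.652%, 7.26% and 45.0%. The only RB1 window, 48476200 to 48476499 on chromosome 13, lies inside the gene, which starts at 48303747, and does not cover that start. The CDK4 window, shown because it held the most E-boxes of the 9, has 3 of them, starting 216, 196 and 101 bases before the start site, and one CDK6 window has 1. The window is chr12:57752261-57752560, minus strand, with the E-boxes in capitals, none of which overlaps a GC box. A match of letters is a description and not a site of binding.
CDK4: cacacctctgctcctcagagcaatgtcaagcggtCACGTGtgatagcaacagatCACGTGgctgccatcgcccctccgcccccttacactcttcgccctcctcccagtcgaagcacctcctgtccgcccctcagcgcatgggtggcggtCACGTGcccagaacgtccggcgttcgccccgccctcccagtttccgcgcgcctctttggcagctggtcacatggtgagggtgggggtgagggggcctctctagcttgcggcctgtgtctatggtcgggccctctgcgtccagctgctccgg

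CDK2 (chromosome 12, 55966769 to 55972789, plus strand) encodes the partner of cyclin E. Its counts were 68.8, 62.3 and 61.6 with control siRNA, 161, 138 and 154 under PKR siRNA 1, and 79.6, 77.2 and 91.2 under PKR siRNA 2. The 3 groups did not overlap, with PKR siRNA 1 the highest. CDK2 showed a log2 fold change of 1.22 for PKR siRNA 1 (SE 0.12, limma, adjusted p = 8.63e-14) and 0.36 for PKR siRNA 2 (SE 0.12, limma, adjusted p = 0.0134), the latter under 1.5-fold. The siRNAs differed from each other by -0.86 (SE 0.12, limma, adjusted p = 6.48e-09). CDK2 was also higher with C16. The counts were 52.5, 68.6 and 71.6 with DMSO, 117, 128 and 104 at 400 nM, and 104, 118 and 116 at 800 nM. The log2 fold changes of 0.86 (SE 0.13, limma, adjusted p = 4.16e-07) and 0.81 (SE 0.13, limma, adjusted p = 4.79e-07) were close to each other, with a difference between doses of -0.04 and a 95% interval of -0.30 to 0.22.

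**Figure D4:**
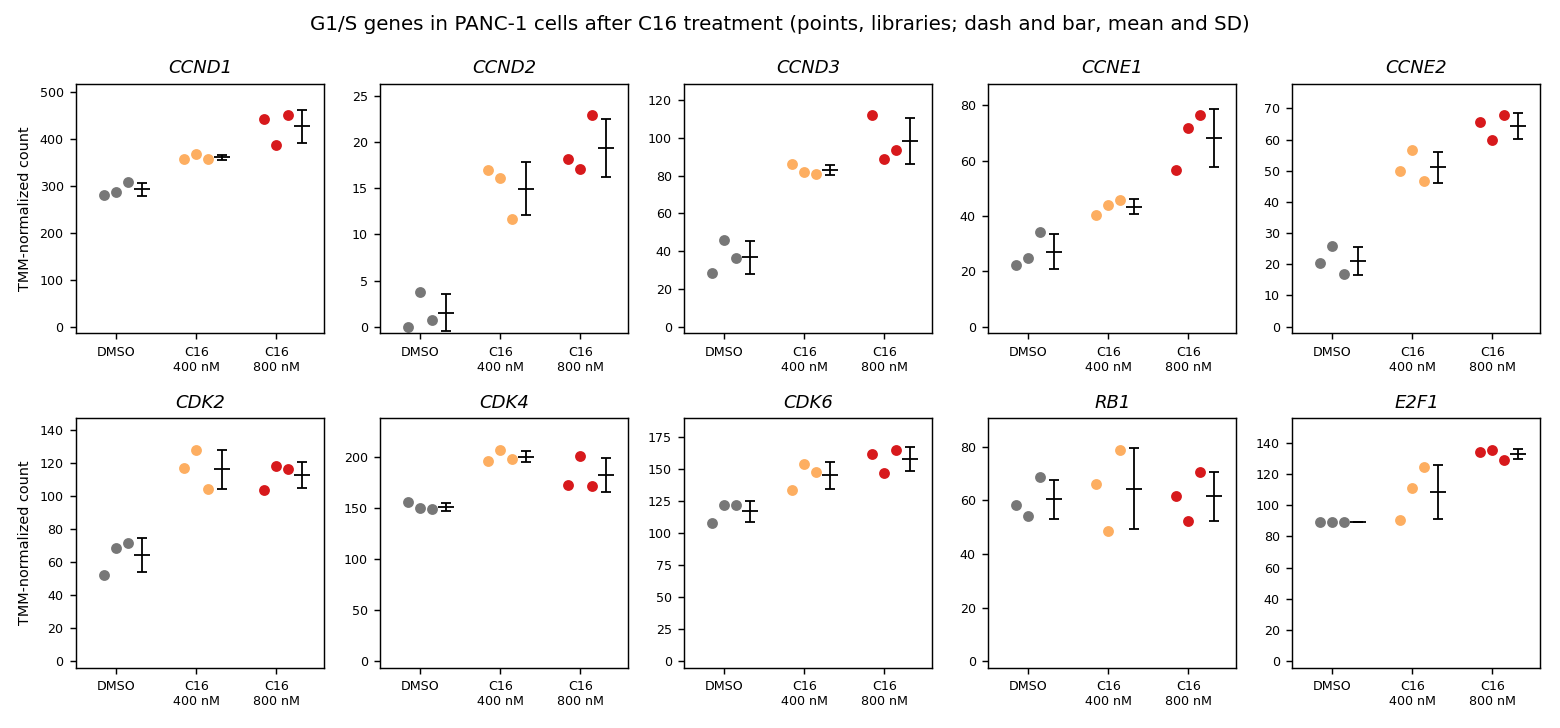
Normalized counts of the 10 members (y axis, 0 near the base, a scale of its own for each gene) in the 9 libraries of the C16 table; points are libraries, the dash and bar their mean and SD (n = 3). The C16 libraries lie above the DMSO libraries for every gene except RB1, and CCNE1 is higher at 800 nM than at 400 nM.

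CCNE1 (chromosome 19, 29811994 to 29824308, plus strand) encodes cyclin E1. In the siRNA table the counts stayed close together, 42.1, 45.1 and 48.3 with control siRNA, 41.1, 39.0 and 39.6 under PKR siRNA 1, and 52.7, 49.3 and 49.8 under PKR siRNA 2. The libraries of the 3 groups did not overlap, PKR siRNA 1 being lowest. The differences did not pass the test, at -0.17 with PKR siRNA 1 (95% interval -0.52 to 0.17, limma, adjusted p = 0.428) and 0.16 with PKR siRNA 2 (95% interval -0.18 to 0.50, limma, adjusted p = 0.457). PKR siRNA 2 against PKR siRNA 1 gave 0.34 (95% interval -0.01 to 0.68, limma, adjusted p = 0.0871). With C16 the level rose by dose. The DMSO libraries held 22.3, 24.8 and 34.3 normalized counts, those at 400 nM 40.4, 43.8 and 45.7, and those at 800 nM 56.5, 71.9 and 76.3. CCNE1 rose by a log2 fold of 0.68 at 400 nM (SE 0.18, limma, adjusted p = 0.00372) and of 1.31 at 800 nM (SE 0.18, limma, adjusted p = 2.63e-08). The call at 400 nM was lost without the first DMSO library, at 0.55, and by DESeq2. CCNE1 was also the 1 member called higher at 800 nM than at 400 nM, by 0.63 (95% interval 0.27 to 1.00, limma, adjusted p = 0.0132), against 1.13% of all tested genes called higher and 3.95% called lower. That call was lost without the first 400 nM library (0.59), the second 800 nM library (0.59) or the third 800 nM library (0.55), and by DESeq2. In this comparison of doses, 5 of the 9 members without CCND2 had all 800 nM libraries above all 400 nM libraries and 0 had them below, against 30.4% of all tested genes on one side.

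CCNE2 (chromosome 8, 94880225 to 94895254, minus strand) encodes cyclin E2. Its normalized counts were 25.7, 17.2 and 24.6 for control siRNA, 22.2, 21.8 and 26.1 under PKR siRNA 1, and 20.9, 21.4 and 32.9 under PKR siRNA 2. These groups overlapped, and the log2 fold changes of 0.07 (95% interval -0.42 to 0.55, limma, adjusted p = 0.848) and 0.14 (95% interval -0.34 to 0.62, limma, adjusted p = 0.666) did not pass the test. With C16 the counts went from 20.4, 25.7 and 16.8 with DMSO to 49.99, 56.5 and 46.8 at 400 nM and 65.6, 59.7 and 67.7 at 800 nM. The 3 groups were apart. CCNE2 rose by a log2 fold of 1.26 at 400 nM (SE 0.18, limma, adjusted p = 2.07e-07) and of 1.59 at 800 nM (SE 0.18, limma, adjusted p = 1.72e-10), the latter 3.01-fold. INTS8 on the opposite strand shares 269 exon bases with CCNE2, 9.87% of its length. INTS8 stood at 117 ± 3.17 normalized counts with DMSO, 101 ± 6.88 at 400 nM and 104 ± 3.34 at 800 nM (SD, n = 3 each). With control siRNA it stood at 157 ± 7.08, with PKR siRNA 1 at 143 ± 0.860 and with PKR siRNA 2 at 101 ± 9.75. The part of INTS8 reads in the CCNE2 values was not tested.

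CCNE1 and CCNE2 together came to 19.0 to 23.7 normalized counts per kb with DMSO, 39.1 to 43.2 at 400 nM and 53.1 to 64.1 at 800 nM. In the siRNA table the sum was 29.5 to 33.9 in the controls, 28.0 to 29.9 for PKR siRNA 1 and 33.2 to 37.7 for PKR siRNA 2. The log2 ratio of CCNE1 to CCNE2 per kb was 0.86 ± 0.58 with DMSO, 0.25 ± 0.18 at 400 nM and 0.56 ± 0.26 at 800 nM (SD, n = 3 each). Its libraries overlapped DMSO at both doses (exact permutation test, two-sided, p = 0.2 and 0.6). With control siRNA it was 1.51 ± 0.34, and with the PKR siRNAs 1.26 ± 0.15 and 1.53 ± 0.39 (exact permutation test, two-sided, p = 0.4 and 1.0).

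RB1 (chromosome 13, 48303747 to 48481890, plus strand) encodes the pocket protein that these kinases phosphorylate. The control siRNA libraries held 81.1, 83.8 and 81.5 normalized counts, the PKR siRNA 1 libraries 133, 121 and 142, and the PKR siRNA 2 libraries 87.5, 82.6 and 105. Only the PKR siRNA 1 libraries stood apart from the controls. RB1 showed a log2 fold change of 0.67 for PKR siRNA 1 (SE 0.12, limma, adjusted p = 2.64e-06) and 0.15 for PKR siRNA 2 (95% interval -0.09 to 0.39, limma, adjusted p = 0.313). PKR siRNA 2 against PKR siRNA 1 gave -0.52 (SE 0.12, limma, adjusted p = 1.45e-04). With C16 the libraries were mixed, at 58.3, 54.3 and 68.5 with DMSO, 65.9, 48.4 and 78.7 at 400 nM, and 61.5, 52.4 and 70.6 at 800 nM. RB1 was the member with no detectable difference at either dose, the log2 fold changes being 0.07 (95% interval -0.25 to 0.39, limma, adjusted p = 0.785) and 0.02 (95% interval -0.30 to 0.35, limma, adjusted p = 0.922).

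E2F1 (chromosome 20, 33675486 to 33686404, minus strand) encodes the transcription factor held back by RB1. Its RefSeq promoter window is shown because it was the one member window that matched an E2F spelling searched for. The match, TTTGGCGC, starts 20 bases before the start site. Other spellings of the E2F site were not searched for, in this window or the others. The window is chr20:33686336-33686635, minus strand, with that match in capitals, and it holds 6 GC boxes that do not overlap it.
E2F1: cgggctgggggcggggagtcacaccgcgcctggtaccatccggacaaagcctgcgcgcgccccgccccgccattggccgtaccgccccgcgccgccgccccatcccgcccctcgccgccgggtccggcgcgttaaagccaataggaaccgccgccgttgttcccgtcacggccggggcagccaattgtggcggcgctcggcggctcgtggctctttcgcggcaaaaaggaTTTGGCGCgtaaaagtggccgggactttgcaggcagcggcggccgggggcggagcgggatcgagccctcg

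Normalized counts of E2F1 were 126, 139.7 and 107 with control siRNA, 129, 168 and 153 under PKR siRNA 1, and 189, 167 and 190.0 under PKR siRNA 2. PKR siRNA 2 lay above the controls, whereas 1 library of PKR siRNA 1 fell among them. In log2 fold change this came to 0.55 for PKR siRNA 2 (SE 0.11, limma, adjusted p = 8.18e-06), or 1.47-fold, and 0.27 for PKR siRNA 1 (SE 0.11, limma, adjusted p = 0.0308). The first of these passed 1.5-fold without the second control library (0.64) or the second PKR siRNA 2 library (0.61). In the C16 table the DMSO libraries held 89.4, 89.5 and 89.1, those at 400 nM 90.4, 111 and 124, and those at 800 nM 134, 135 and 129. Levels followed the dose without overlap, although the lowest 400 nM library sat next to DMSO. E2F1 stood at a log2 fold change of 0.27 at 400 nM (95% interval 0.03 to 0.51, limma, adjusted p = 0.0935) and 0.57 at 800 nM (SE 0.12, limma, adjusted p = 8.83e-05), the latter 1.48-fold.

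The direct comparison of the 2 siRNAs, PKR siRNA 2 against PKR siRNA 1, called CCND1, CCND3 and CDK2 lower and 0 members higher. Of all tested genes, 15.3% were called lower and 16.4% higher. The libraries of the siRNAs were fully apart for 7 of the 9 tested members, 6 below and 1 above, against 60.6% of all tested genes. The members' median log2 fold change was -0.52, against -0.01 for all tested genes. Both siRNAs lowered EIF2AK2, to between 9.65 and 13.6 normalized counts with PKR siRNA 1 and between 7.96 and 9.40 with PKR siRNA 2. These ranges did not overlap.

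Other genes of the pathway were taken from lists written with results of these data known. Of the CDK inhibitors, CDKN2A and CDKN2B were at 0 in all 18 libraries, and CDKN1C was too low to test. Among the 4 that were tested, CDKN2C, an inhibitor of CDK4 and CDK6, was called higher with both siRNAs, with 94.7 ± 16.1 normalized counts in the controls, 169.6 ± 4.64 for PKR siRNA 1 and 162 ± 16.5 for PKR siRNA 2 (SD, n = 3 each). CDKN1A, encoding p21, was called higher with PKR siRNA 2 (log2 fold change 1.25). With PKR siRNA 1 its log2 fold change was 0.42 (SE 0.14, limma, adjusted p = 0.00810), short of 1.5-fold. The paper, by its own test, lists CDKN1A among the genes raised over 1.5-fold with both siRNAs and with C16 at 800 nM. Of all tested genes, 8.53% were called higher under PKR siRNA 1 and 10.8% under PKR siRNA 2. With C16 CDKN1B, encoding p27, an inhibitor of cyclin E with CDK2, was called lower at both doses, from 63.0 ± 6.59 with DMSO to 33.7 ± 6.00 at 400 nM and 23.3 ± 2.31 at 800 nM. CDKN1A was called higher at 400 nM (0.64) and CDKN2C lower at 800 nM (-1.04), where 7.08% and 14.1% of all tested genes were called in those directions. At 800 nM, the dose of the paper's list, CDKN1A was not called. CDKN2D, another inhibitor of CDK4 and CDK6, passed the filter only through treated libraries and is given by its values. It stood at 9.45 ± 1.97 normalized counts in the controls, 21.1 ± 4.96 for PKR siRNA 1 and 10.0 ± 3.50 for PKR siRNA 2. In the C16 table it stood at 5.22 ± 2.94 with DMSO, 15.7 ± 3.74 at 400 nM and 13.0 ± 0.738 at 800 nM.

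Of the 11 other pocket protein and E2F family genes, all tested, PKR siRNA 1 gave 1 called higher and 2 lower, and PKR siRNA 2 gave 2 higher and 5 lower. Of all tested genes, 8.53% were called higher and 12.6% lower with the first, and 10.8% and 12.8% with the second. The list medians were 0.15 and -0.47, against -0.01 for all tested genes in both. E2F7, an E2F that represses transcription, went to opposite sides, from 45.4 ± 6.57 normalized counts in the controls to 100.1 ± 7.33 under PKR siRNA 1 and 16.9 ± 3.62 under PKR siRNA 2. These groups differed in E2F7 by -2.52 (SE 0.18, limma, adjusted p = 8.65e-21). E2F2 (-0.71) and TFDP2 (-0.68) were the genes called lower with PKR siRNA 1, and E2F3 (-0.87) and E2F8 (-0.83) followed E2F7 (-1.39) in size with PKR siRNA 2. At 400 nM C16 2 were called higher and 0 lower, E2F7 (0.93) and E2F2 (0.79). At 800 nM 3 were called higher, among them E2F2 (1.13) and TFDP1 (0.87), and 2 lower, the larger fall being that of RBL2, encoding the pocket protein p130 (-0.85). The shares over all tested genes were 7.08% higher and 5.45% lower at 400 nM, and 11.6% and 14.1% at 800 nM, and the list medians were 0.17 and 0.40 against 0.00.

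**Figure D5:**
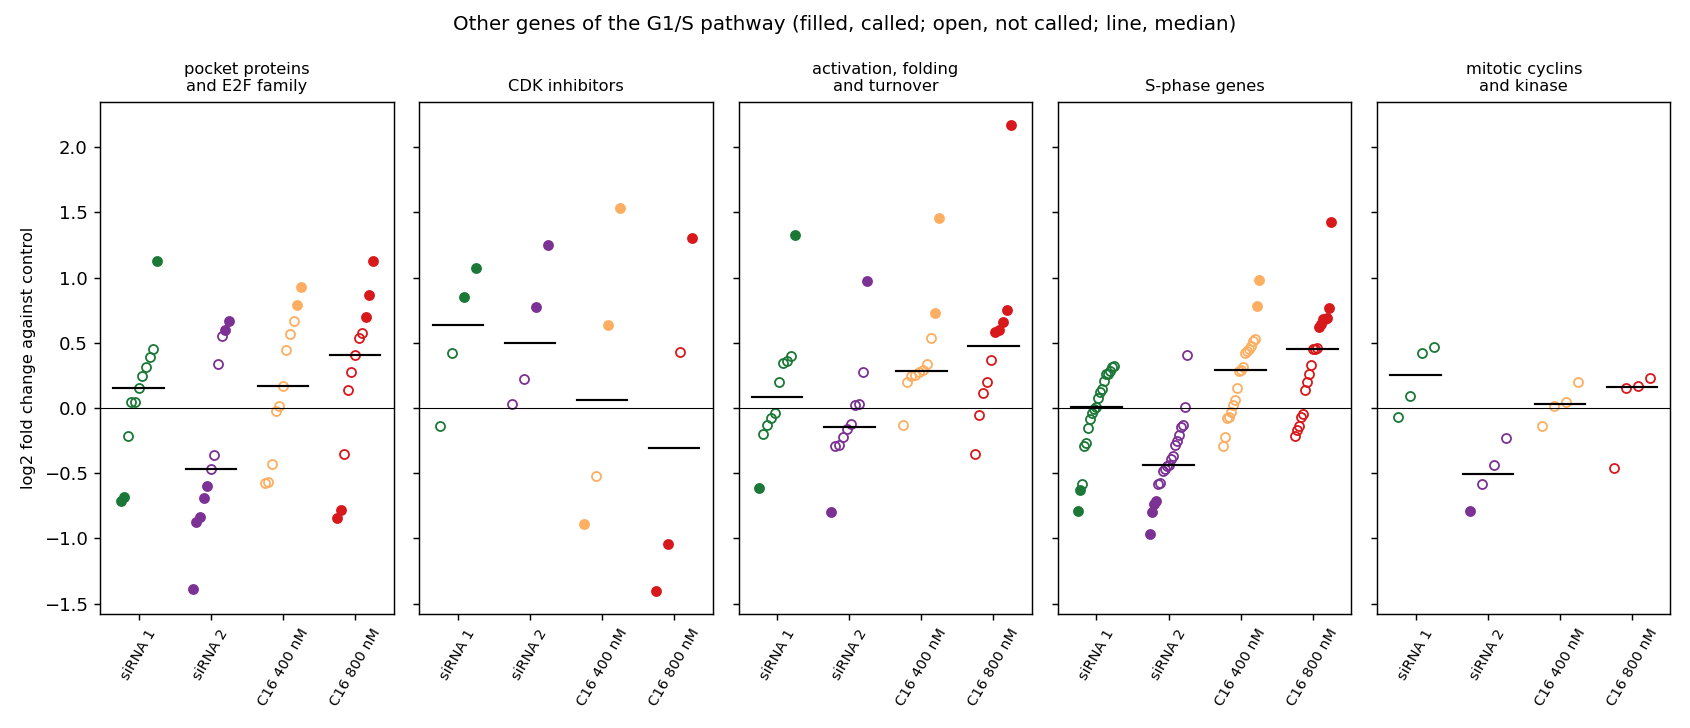
Log2 fold change against control (y axis) of the tested genes of 5 lists, 1 panel a list, for each treatment; filled points were called, open points were not, and the line is the median. CDC25A stands highest at 800 nM C16 at 2.17, and the S-phase genes include 7 called higher at 800 nM and 4 called lower with PKR siRNA 2, while CDKN2D among the inhibitors passed the filter only through treated libraries.

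Genes for the activation, folding and turnover of G1 cyclins and kinases were 10, all tested. CDC25A, the phosphatase that activates CDK2, was called higher with C16, from 12.8 ± 2.29 normalized counts with DMSO to 36.5 ± 3.39 at 400 nM and 60.7 ± 8.10 at 800 nM, and lower with PKR siRNA 2, from 78.7 ± 12.3 to 44.6 ± 4.58 (SD, n = 3 each). With C16 it rose by a log2 fold of 1.46 at 400 nM (SE 0.21, limma, adjusted p = 1.53e-07) and 2.17 at 800 nM (SE 0.21, limma, adjusted p = 4.89e-13). At 800 nM 5 of the 10 were called higher and 0 lower, including FBXW7, which marks cyclin E for breakdown (0.75), and CDC37, the chaperone partner that loads CDK4 and CDK6 (0.66). At 400 nM 2 were called higher, CDC25A and FBXW7 (0.72), and 0 lower. Each siRNA gave 1 called higher, CKS1B, at 1.32 and 0.98, and 1 called lower, CDK7 with PKR siRNA 1 (-0.61) and CDC25A with PKR siRNA 2 (-0.80). Over all tested genes the shares called higher were 11.6% at 800 nM, 7.08% at 400 nM, 8.53% for PKR siRNA 1 and 10.8% under the other siRNA, and those called lower 14.1%, 5.45%, 12.6% and 12.8%. The list medians in that order were 0.48, 0.28, 0.08 and -0.14, where those of all tested genes were 0.00, 0.00, -0.01 and -0.01.

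Among 19 S-phase genes known as E2F targets, all tested, 0 were called higher with either siRNA. PKR siRNA 1 gave 2 called lower, MCM6 (-0.79) and POLA1 (-0.63), with a list median of 0.00, where 12.6% of all tested genes were called lower. PKR siRNA 2 gave 4, the largest falls being CCNA2 (-0.97), MCM3 (-0.80) and ORC1 (-0.74), with a median of -0.43, where 12.8% of all tested genes were called lower. With C16 0 were called lower, against 5.45% of all tested genes at 400 nM and 14.1% at 800 nM. At 400 nM CDC6 (0.98) and RRM2 (0.78) were called higher, with a median of 0.29, and at 800 nM 7 were, led by CDC6 (1.43), RRM2 (0.76) and TYMS (0.69), with a median of 0.45. Of all tested genes, 7.08% were called higher at 400 nM and 11.6% at 800 nM, and the medians over all tested genes were between -0.01 and 0.00 in the 4 comparisons. CDC6, which helps load the replicative helicase, went from 77.6 ± 17.0 normalized counts with DMSO to 151 ± 8.93 at 400 nM and 207 ± 17.3 at 800 nM (SD, n = 3 each). Of the 4 mitotic genes CDK1, CCNB1, CCNB2 and CDC20, 0 were called at either C16 dose or with PKR siRNA 1, and CDK1 was called lower with PKR siRNA 2 (-0.79). Set against PKR siRNA 1, PKR siRNA 2 was called lower in all 4, by -0.71, -0.85, -0.68 and -0.70, and 15.3% of all tested genes were called lower in that comparison.

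The genes most like CDK6 across the 9 libraries of the siRNA table, by Pearson's r of log2 (normalized count + 1) for genes averaging 50 or more, were POM121C, SMAP2 and STRA13, each at 0.98. For CCND2 in the C16 table they were KAT2B (0.98), CCND3 (0.98) and SFMBT1 (0.97). The 9 libraries fall into 3 groups and share their run and normalization, so these values describe a shared order of the groups and carry no test.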

How the data were processed

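Poly(A) RNA was sequenced in 18 libraries, which were grouped by their labels. The authors aligned with TopHat against hg38, assigned reads to genes by featureCounts and applied the TMM method of TCC, in a table for each experiment. The deposited values are therefore a normalized signal, gene counts over 1 factor per library. Libraries were made with a directional kit, which keeps the strand, and the annotation, versions and strand setting of the counting are not given in the sources used here. In every library 100.0% of values were whole multiples of 1 read (tolerance 0.01 read), from which the reads were taken. For the first PKR siRNA 2 library and the first 800 nM library 1 read was worth close to 1 normalized count, at 0.995 and 1.009. Replicates differed beyond sampling noise in all 18 pairs (chi-square per degree of freedom 1.03 to 1.63), and none were merged. The highest values, 1.63 and 1.37, were those of the third DMSO library against the first and the second, which gave 1.08 against each other.

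After taking log2 (normalized count + 1), values were compared by limma (version 3.58.1, under R 4.3.3, using lmFit and eBayes with trend, two-sided), with the 9 libraries of a table in 1 fit, no covariates and Benjamini-Hochberg adjustment over all genes with a mean of at least 10. Ratios within a library had an exact permutation test. As alternatives, the pseudocount was set to 0.5 or 5, the filter was dropped or raised to a mean of 30, libraries were rescaled by median of ratios, the fit was limited to the groups compared or given a replicate block, recovered reads were tested by edgeR 4.0.16 (quasi-likelihood) and DESeq2 1.42.0, and each library was left out in turn. The scripts were tested on simulated reads. The members, the gene lists and the rules were chosen with earlier results of these data known. Beside the members and EIF2AK2, the genes named were, for each list and treatment, the 3 called genes with the largest change, and the 3 genes most like the member with the largest change in each table. E2F7 and the mitotic genes between the siRNAs, the genes sharing exons with members, and the CDK inhibitors at 0 were named after their values were seen. Promoter sequences are RefSeq's, and positions and exon lengths are those of the deposited tables.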

Additional observations from a re-analysis of the deposited data

Results flagged for a closer look

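For 4 members the treatments moved the libraries to opposite sides of their controls, with every library of one treated group above and every library of another below. All libraries lay on one side for 51.7% of all tested genes with PKR siRNA 1 and 54.3% with PKR siRNA 2. The shares were 39.6% at 400 nM C16 and 51.8% at 800 nM. Opposite sides were not counted over all tested genes, so how usual such a pattern is was not tested. With PKR siRNA 1, PKR siRNA 2, 400 nM C16 and 800 nM C16 in that order, CCND1 had log2 fold changes of -0.26, -1.05, 0.30 and 0.54, and CCND3 0.44, -0.85, 1.18 and 1.41. CCNE1 had -0.17, 0.16, 0.68 and 1.31, of which the siRNA values did not pass the test, and CDK4 had 0.30, -0.22, 0.40 and 0.26. Between the siRNAs the difference was tested within the siRNA table by limma. It passed the p threshold for CCND1, CCND3 and CDK4 (log2 fold changes -0.80, -1.30 and -0.52) and not for CCNE1 (0.34, adjusted p = 0.0871). Between the siRNAs and C16 the difference was not tested, since the tables were normalized separately and hold no common group. Groups of 3 libraries were too small to test for single libraries that stand apart.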

How the results depend on the processing

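Among 849 values of single members under the alternatives, 824 kept direction and side of the threshold. The values of CCND2 in the C16 table are included in these numbers. Over the libraries left out in turn, small differences that had not passed the test changed sign. For CCNE2 the log2 fold change ranged from -0.11 to 0.17 with PKR siRNA 1, -0.064 to 0.25 with PKR siRNA 2 and -0.13 to 0.18 between them. For RB1 it ranged from -0.087 to 0.26 at 400 nM, -0.080 to 0.13 at 800 nM and -0.24 to 0.11 between the doses, and for CDK2 between the doses from -0.12 to 0.028. The difference from control in the log2 ratio of CCNE1 to CCNE2 also changed sign, from -0.14 to 0.24 with PKR siRNA 2 and from -0.51 to 0.04 at 800 nM. The count of members called higher ranged from 1 to 2 with PKR siRNA 2 (E2F1 added) and from 0 to 1 between the doses (CCNE1 lost). DESeq2 gave 0 members called higher between the doses, with CCNE1 at 0.67 (adjusted p = 0.0553), and it lost CCNE1 at 400 nM (0.64, adjusted p = 0.0735). CCNE1 was also lost there without the first DMSO library (0.55). Calls were gained for E2F1 at 800 nM without the third 800 nM library (0.59), and for RB1 between the siRNAs without the second PKR siRNA 1 library (-0.59) or the third PKR siRNA 2 library (-0.62). With 1 read added and no length correction, the change in the share of CCND1 with PKR siRNA 1 was -5.10 percentage points in place of -6.42. The cause of these shifts was not tested.

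Same-numbered replicates did not deviate together (correlations from -0.05 to 0.03), so the numbers do not pair the libraries. With a replicate block the members called higher stayed at 3, 1, 4 and 4 with PKR siRNA 1, PKR siRNA 2, 400 nM and 800 nM (CCND2 left out), and the block changed no member's call. Over all genes, DESeq2 called 51 higher and 137 lower between the doses, against 113 and 394 by limma, and a minimum mean of 30 gave 296 lower against 543 at 400 nM, 800 against 1403 at 800 nM and 231 against 394 between the doses, from fewer genes tested. Depth limits CCND2 most, and CCNE1 and CCNE2 next.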
